A study of Mus musculus with 12 samples.

Results

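S100 proteins are small calcium-binding proteins that work mostly as dimers inside cells, and some of them act outside cells as danger signals. Annexins bind acidic membrane phospholipids when calcium rises, and take part in membrane repair, vesicle traffic and the link between membrane and actin. The families meet physically: S100a10 protein binds annexin A2 without needing calcium, and S100a11 protein binds annexin A1. In the normal adult liver annexin A2 is low, and it is known to be raised in injured and regenerating liver.

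Here 10 genes of these families, 6 S100 genes (S100a4, S100a6, S100a8, S100a9, S100a10 and S100a11) and 4 annexin genes (Anxa1, Anxa2, Anxa3 and Anxa5), were taken by gene name out of a table of 54532 genes measured in the liver of 12 mice. The list was drawn up with FPKM values of these livers known, so the differences of its members between diet groups are a description. Where members called by the fit across all genes are counted, the count stands beside the share of all genes called and is no independent evidence. FPKM scales the fragments of a gene by its length in kilobases and by a library total, which here was not the count of fragments on genes. All mice were male C57BL/6J, 5 weeks old at the start, and stayed on their diet for 26 weeks, with 3 mice in each of 4 groups. The ND group ate a normal diet. The control group ate a high-fat diet with no added fatty acid, the HYA group the same high-fat diet with 1% HYA, a hydroxy fatty acid produced from linoleic acid by gut bacteria, and the LA group the high-fat diet with 1% LA, linoleic acid itself. Control, HYA and LA mice thus share the high-fat diet, and only the ND mice lack it. Each column of the table is the whole liver RNA of 1 mouse, so fewer cells of a type and less RNA per cell cannot be told apart. Between 17169064 and 25220880 fragments fell on genes in each mouse, as recovered from the table, and hepatocyte markers dominated all 12 livers (Alb, which encodes albumin, had a mean of 23934 FPKM over the 12 mice).

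On the log2(FPKM + 1) scale, S100a11, Anxa2 and Anxa5 differed most between control and ND livers. Against ND, the mean FPKM in control livers was 12.9 times higher for S100a11, 8.43 times for Anxa2 and 3.87 times for Anxa5. HYA livers lay between ND and control for these 3 genes, and LA livers lay near control. By the ratio of means alone, S100a6 (4.40 times) was above Anxa5, at 0.597 FPKM in ND and 2.63 FPKM in control livers.

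By position, the S100 members share 1 stretch of a chromosome, and the annexin members do not. All 6 S100 members lie on chromosome 3, in a stretch from 90511034 to 93564643 (GRCm38) that holds 14 S100 genes, with S100a11 (93520488 to 93526287) and S100a10 (93555080 to 93564643) close together at its far end. Anxa5 is also on chromosome 3, but far outside that stretch (36448923 to 36475894), whereas Anxa2 is on chromosome 9 (69453620 to 69491795), Anxa1 on chromosome 19 (20373428 to 20390944) and Anxa3 on chromosome 5 (96793339 to 96845966). RefSeq promoter sequences (GRCm38.p6) were at hand for 8 of the 10 members. The 250 bases before the start site are shown for the 3 members with the largest differences between control and ND on the log2(FPKM + 1) scale, S100a11 (chr3:93520246-93520495, plus strand), Anxa2 (chr9:69453433-69453682, plus strand) and Anxa5 (chr3:36475888-36476137, minus strand), to let the genes that differed most be compared at their promoters. Capitals mark matches, on either strand, to TGANTCA (the AP-1 site), GGGCGG (the GC box) and TATAAA (the TATA box), which do not overlap one another in these sequences.
S100a11: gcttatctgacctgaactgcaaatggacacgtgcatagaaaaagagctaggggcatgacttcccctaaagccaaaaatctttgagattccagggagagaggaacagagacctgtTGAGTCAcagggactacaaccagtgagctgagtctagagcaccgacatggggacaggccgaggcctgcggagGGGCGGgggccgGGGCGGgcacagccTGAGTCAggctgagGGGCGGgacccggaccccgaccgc
Anxa2: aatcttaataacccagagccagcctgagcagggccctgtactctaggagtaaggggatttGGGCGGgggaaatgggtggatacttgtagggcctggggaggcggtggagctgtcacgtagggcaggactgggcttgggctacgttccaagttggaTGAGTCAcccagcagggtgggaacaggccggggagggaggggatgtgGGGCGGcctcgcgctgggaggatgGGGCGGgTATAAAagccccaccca
Anxa5: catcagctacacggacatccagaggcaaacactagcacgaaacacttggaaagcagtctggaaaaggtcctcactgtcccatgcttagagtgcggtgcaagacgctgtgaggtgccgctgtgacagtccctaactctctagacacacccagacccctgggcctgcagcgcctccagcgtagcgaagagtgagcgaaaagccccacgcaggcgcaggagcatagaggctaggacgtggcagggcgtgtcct
Over the 300-base windows of the 8 members (the 250 bases above and 50 after the start), the AP-1 letters occurred in S100a11, with first bases 136 and 38 before the start, and in Anxa2, 95 before it. Of 32851 mouse promoter windows of this length, 7.81% held them. The TATA letters occurred in 5 of the 8 windows, against 13.6% of all at any position. Their first base lay 31 before the start in S100a4, 30 in S100a8, 32 in Anxa1 and 17 in Anxa2, and at the start itself in S100a9. The GC box occurred in 3 (S100a9, S100a11 and Anxa2), against 35.7%. Fewer members held CCAAT (S100a6, against 37.4% of all), the TEAD letters CATTCC (Anxa1, 14.7%) or the C/EBP letters TTGCNNAA (S100a9 and Anxa1, 10.8%). A 10-base NF-kB consensus was in 0 of the 8 windows and in 0.411% of all. The Anxa5 window held none of these 7 motifs. These are matches of letters, chosen after the expression values were known, and no binding was measured.

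Beginning with the pair that forms a complex, Anxa2 stood at 4.16, 4.00 and 3.89 FPKM in the 3 ND mice and at 37.7, 24.7 and 39.3 FPKM in the 3 control mice. It stood at 21.0, 15.1 and 14.7 FPKM in the HYA mice and at 40.6, 33.5 and 30.8 FPKM in the LA mice. The ND, HYA and control values did not overlap, and the LA values covered much the same range as control. On the log2(FPKM + 1) scale, on which all fold changes below are given, Anxa2 was higher by 2.77 ± 0.178 (SE of the fit) in control against ND and differed by -0.95 ± 0.178 in HYA against control. S100a10, whose protein stabilises annexin A2 at the membrane, was already abundant in ND livers, at 57.1, 76.6 and 67.8 FPKM. It reached 143, 110 and 163 FPKM in control, 132, 93.3 and 85.3 FPKM in HYA and 176, 156 and 135 FPKM in LA livers. HYA mouse 1 lay inside the control range, so HYA and control overlapped for S100a10 where they did not for Anxa2. The fitted differences of S100a10 were 1.03 ± 0.187 in control against ND and -0.42 ± 0.187 in HYA against control. 

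The ratio of the partners therefore shifted. S100a10 mRNA exceeded Anxa2 mRNA 16.8-fold in ND livers (SD 2.78, n = 3), 4.13-fold in control (SD 0.331), 6.10-fold in HYA (SD 0.261) and 4.46-fold in LA livers (SD 0.171), per kilobase in each case. The ratio was above 13.7 in all ND mice and at or below 6.30 in all others, and the 3 HYA mice (5.81 to 6.30) did not overlap the control mice (3.79 to 4.45) or the LA mice (4.34 to 4.66).

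**Figure D1:**
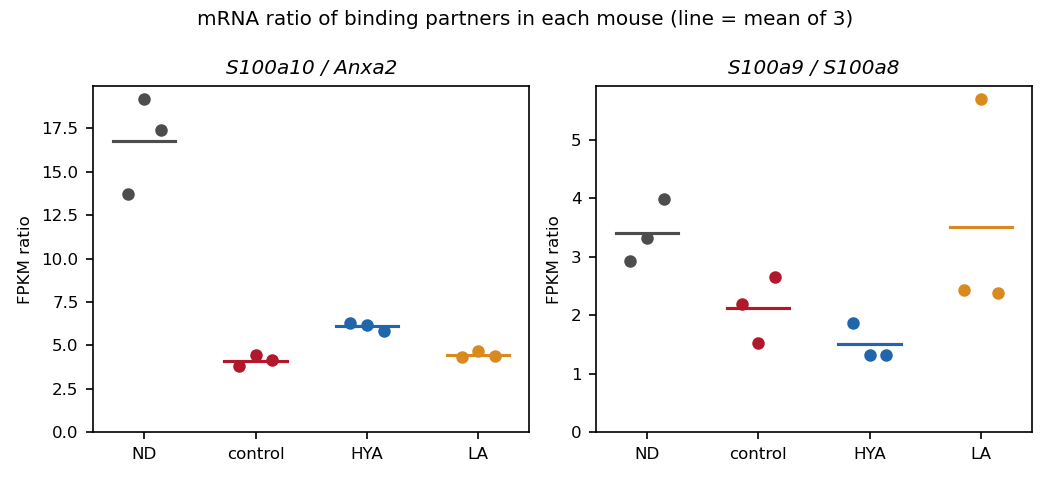
FPKM ratio of S100a10 to Anxa2 (left) and of S100a9 to S100a8 (right) in each mouse, by diet group, with points for single mice and lines for the mean of 3. The left ratio is 16.8 on average in ND and 4.13 in control, with HYA at 6.10, and the right ratio rests on few fragments, with 1 LA mouse at 5.70.

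S100a11, the annexin A1 partner, which takes part in membrane repair and cell growth, showed the largest difference of the 10 genes. ND mice had 5.35, 4.31 and 4.90 FPKM, and control mice had 78.4, 48.4 and 61.7 FPKM. HYA mice had 26.9, 22.6 and 25.3 FPKM, and LA mice had 62.1, 50.2 and 47.6 FPKM. Every HYA value was below every control and LA value and above every ND value. Its fold change was 3.42 ± 0.158 in control against ND, -1.28 ± 0.158 in HYA against control and -0.22 ± 0.158 in LA against control. Anxa1 itself, known for its anti-inflammatory action through formyl peptide receptors, was much lower, with ND values of 1.07, 0.941 and 1.24 FPKM, control values of 2.62, 2.32 and 3.61, HYA values of 2.27, 1.52 and 1.83 and LA values of 3.80, 2.82 and 2.72. The groups again ran in the order ND, HYA and then control or LA, and the highest HYA mouse (2.27) was just below the lowest control mouse (2.32). S100a11 mRNA was 4.51-fold Anxa1 mRNA in ND livers (SD 0.523) and 22.6-fold in control livers (SD 6.58), with 13.5-fold in HYA (SD 1.51) and 17.2-fold in LA livers (SD 0.759).

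Anxa5, whose protein binds phosphatidylserine on the surface of dying cells, was with S100a10 the most abundant member. It measured 41.5, 39.7 and 48.0 FPKM in ND, 185, 127 and 188 FPKM in control, 114, 88.7 and 94.3 FPKM in HYA and 185, 150 and 151 FPKM in LA livers. ND, HYA and control did not overlap, and control and LA did. The fold change was 1.91 ± 0.156 in control against ND and -0.73 ± 0.156 in HYA against control. Anxa3 differed least of the members detected in all 12 mice, with ND values of 1.45, 1.37 and 1.41 FPKM against 2.37, 2.04 and 2.38 FPKM in control livers, and 2.14, 1.79 and 1.88 FPKM in HYA and 2.56, 2.14 and 2.60 FPKM in LA livers. Its ND values were the tightest of all and lay below every other mouse, while HYA overlapped control and LA.

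**Figure D2:**
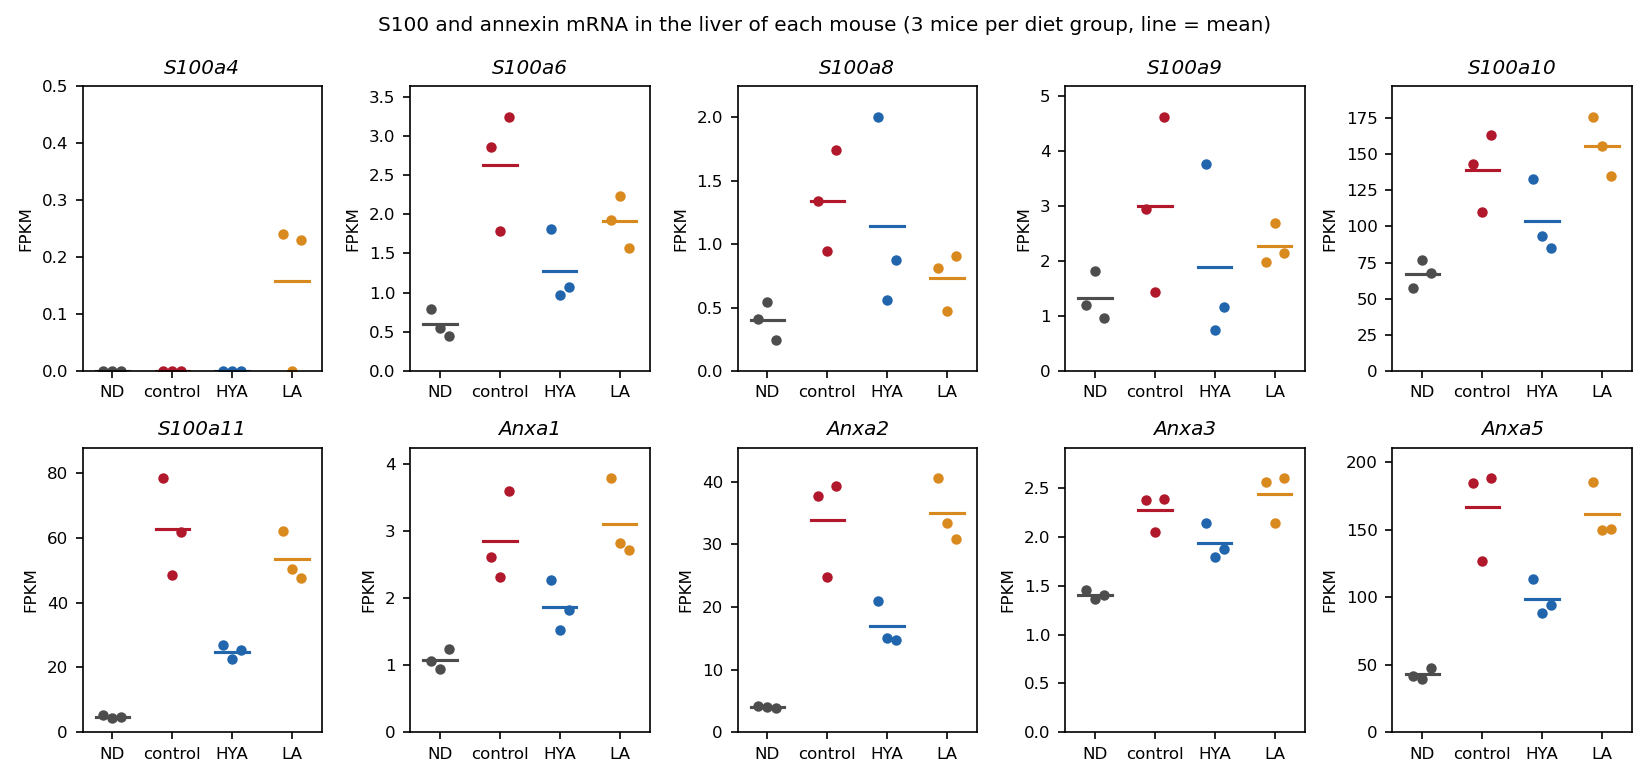
FPKM of the 10 members in each of the 12 livers, 1 panel per gene with its own linear axis from 0, points for single mice and lines for the mean of 3 per diet group. S100a11, Anxa2 and Anxa5 show ND at the bottom, HYA in between and control with LA on top, and S100a4 is at 0 in 10 mice.

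The remaining S100 genes were low. S100a6 (calcyclin, a binding partner of Cacybp) measured 0.791, 0.553 and 0.448 FPKM in ND, 2.86, 1.78 and 3.25 FPKM in control, 1.81, 0.968 and 1.07 FPKM in HYA and 1.92, 2.23 and 1.58 FPKM in LA livers, so that HYA mouse 1 entered the control range. S100a8 and S100a9, which form calprotectin, an abundant protein of neutrophils and inflammatory monocytes, came with few fragments per mouse. S100a9 had 1.20, 1.81 and 0.959 FPKM in ND, 2.94, 1.43 and 4.62 FPKM in control, 3.75, 0.740 and 1.16 FPKM in HYA and 1.98, 2.70 and 2.15 FPKM in LA mice. Its SD over 3 mice was 1.59 FPKM in control and 1.63 FPKM in HYA. These groups overlapped through HYA mouse 1, while HYA mice 2 and 3 lay below every control mouse. S100a8 rested on 14 fragments over the 3 ND mice, 59 over control, 49 over HYA and 33 over LA mice. Its FPKM was 0.410, 0.544 and 0.241 in ND, 1.34, 0.944 and 1.74 in control, 2.01, 0.556 and 0.874 in HYA and 0.811, 0.473 and 0.905 in LA mice. Both genes had their highest HYA value in HYA mouse 1 and, within control, their lowest value in mouse 2. 

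S100a4, a marker of motile fibroblasts and macrophages, was at 0 fragments in 10 mice and had 3 fragments in each of LA mice 1 and 3 (0.241 and 0.230 FPKM). A count of 0 allows up to 3 fragments, which is 0.208 to 0.323 FPKM for S100a4 depending on the mouse, so no difference between groups was detectable. In the GENCODE M21 annotation 302 of its 584 exonic bases (51.7%) are shared on the same strand with Gm42674, and how the authors counted fragments shared by overlapping genes is not given in the sources used here, so the level of S100a4 is uncertain. The effect of the shared bases on S100a4 was not tested. Anxa3 shares 3.07% of its exonic bases with another gene on the same strand, Anxa2 2.63% with a gene on the opposite strand, and the other members 0%.

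Per kilobase, the members of ND livers ran from S100a10 (mean 67.2 FPKM) over Anxa5 (43.1), S100a11 (4.85), Anxa2 (4.02), Anxa3 (1.41), S100a9 (1.32), Anxa1 (1.08), S100a6 (0.597) and S100a8 (0.398) down to S100a4. Anxa3 and S100a9, S100a9 and Anxa1, and S100a6 and S100a8 overlapped in this order, and the other neighbours above S100a4 did not. In control livers Anxa5 (167) was first and S100a10 (139) next, with overlapping values, followed by S100a11 (62.8) and Anxa2 (33.9), which did not overlap. Then came S100a9, Anxa1 (2.85), S100a6 (2.63) and Anxa3 (2.27), each overlapping its neighbour, and S100a8 (1.34).

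The fit across genes took in those averaging 1 FPKM or more across all livers (limma on log2(FPKM + 1), 11083 genes, calls at a Benjamini-Hochberg adjusted p under 0.05). S100a4 and S100a8 did not reach that level, so 8 of the 10 members were fitted. In control against ND, 7 of the 8 were called higher, S100a9 being the exception, beside 16.2% of all genes called higher. Over all 10 members, 8 had control and ND values that did not overlap (S100a4 and S100a9 did), beside 19.9% of all genes tested that were higher without overlap. The median log2 fold change of the 8 was 1.10, and that of all genes tested was -0.04. Since the members were chosen from these values, nothing is read from these counts.

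In HYA against control, 3 of the 8 were called lower (S100a11, Anxa2 and Anxa5), beside 1.23% of all genes, and 4 of the 10 lay below control without overlap (the same 3 and Anxa1), beside 8.87% of all genes. The median was -0.60 for the members and 0.02 for all genes. The call depended on single mice: 1 member (S100a11) was called without control mouse 1, control mouse 3 or HYA mouse 3, and 0 without HYA mouse 2, when 4 of the 8 still had an unadjusted p under 0.05 in limma. With only the 6 HYA and control mice in the fit, 0 were called by limma and 5 had an unadjusted p under 0.05. Voom on the recovered fragments of all 12 mice called 3. In LA against control, limma called 0 of the 8 members in either direction, beside 0% of all genes, and 0 members and 294 of the 11083 genes had an unadjusted p under 0.05. Voom also called 0 members. Of the 10 members, 1 lay below control without overlap, beside 400 of the 11083 genes tested. It was S100a8, which was not fitted, at 0.473 to 0.905 FPKM in LA and 0.944 to 1.74 FPKM in control livers. The members' median was 0.02, S100a10 differing by 0.18 ± 0.187, Anxa1 by 0.10 ± 0.143, Anxa2 by 0.06 ± 0.178, Anxa5 by -0.03 ± 0.156 and S100a6 by -0.30 ± 0.177. A p that misses the threshold does not show that control and LA were alike.

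HYA and LA, the fatty acid and the linoleic acid from which bacteria make it, were given at the same percentage of the diet for the same time. HYA livers were lower than LA livers by 1.06 ± 0.158 for S100a11 and by 1.01 ± 0.178 for Anxa2, by 0.71 ± 0.156 for Anxa5, by 0.60 ± 0.187 for S100a10 and by 0.51 ± 0.143 for Anxa1. These 5 genes did not overlap between HYA and LA mice, beside 10.4% of all genes that were lower without overlap. S100a11 and Anxa2 were called lower, beside 0.253% of all genes, whereas S100a6 (-0.36 ± 0.177), S100a9 (-0.32 ± 0.363) and Anxa3 (-0.23 ± 0.0766) overlapped. The count of 2 fell to 1 without ND mouse 1 or HYA mouse 1 and to 0 without ND mouse 2, ND mouse 3, HYA mouse 2, HYA mouse 3 or any 1 LA mouse, and in these fits limma gave 5 to 8 of the 8 members an unadjusted p under 0.05. HYA livers were still above ND livers in 8 of the 10 members without overlap, beside 16.6% of all genes, and S100a11, Anxa2, Anxa5 and Anxa3 were called higher, beside 8.72% of all genes. Mean FPKM in HYA livers was 5.14 times that of ND for S100a11, 4.21 times for Anxa2 and 2.30 times for Anxa5. The comparisons with control share the control mice, and those with HYA share the HYA mice.

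**Figure D3:**
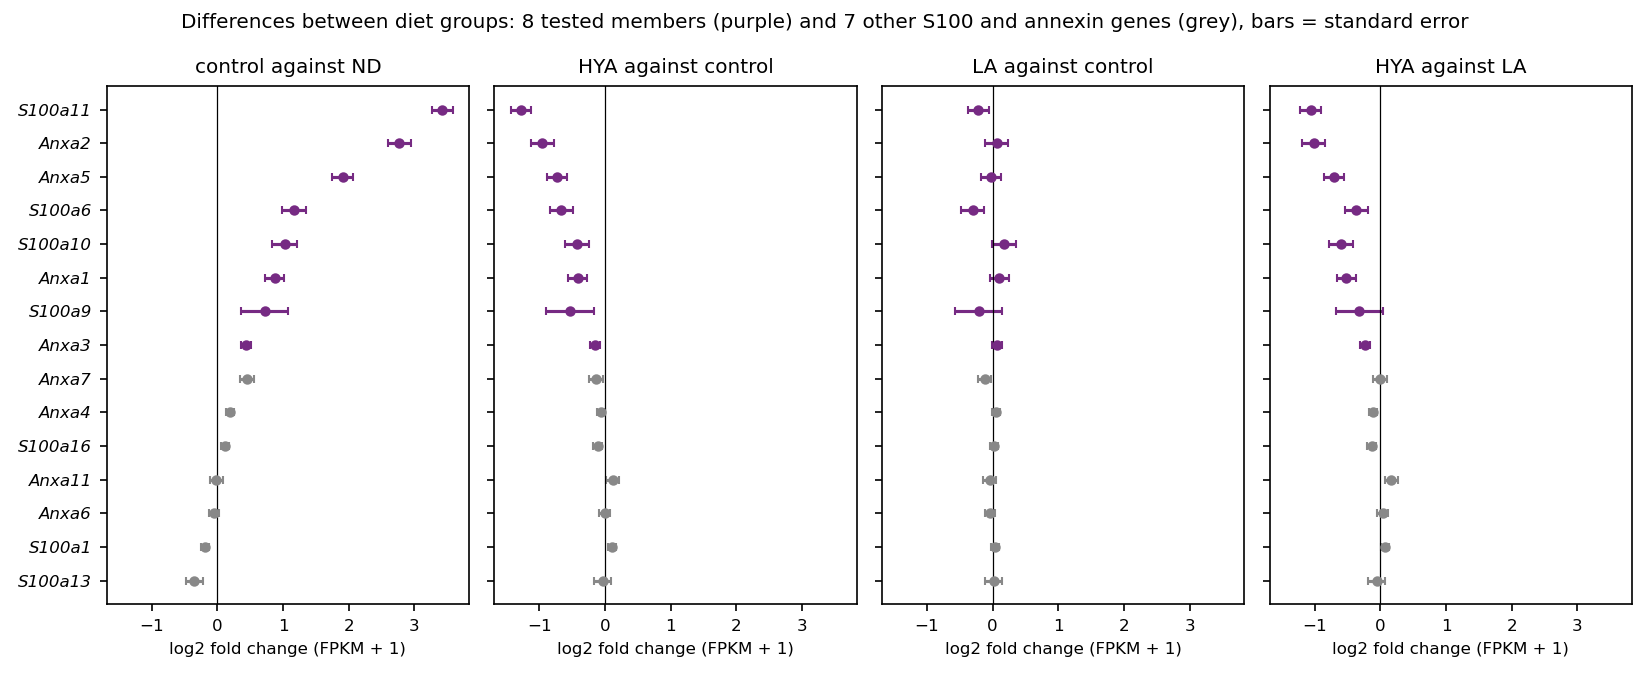
Log2 fold change of FPKM + 1 (points, with bars for the standard error of the fit) in 4 comparisons of diet groups, for the 8 fitted members in purple and the 7 other S100 and annexin genes that were fitted in grey. In control against ND the members run from 0.44 (Anxa3) to 3.42 (S100a11) and the other genes from -0.35 (S100a13) to 0.45 (Anxa7). In LA against control all points lie from -0.30 (S100a6) to 0.18 (S100a10).

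In 3 of the 4 groups, single mice stood high or low in most members together. Within the control group, mouse 2 was the lowest in 8 of the 8 fitted members, with a median deviation of -0.35 from the group mean on the log2 scale, and mouse 3 the highest in 7. Within the HYA group, mouse 1 was the highest in 8 of the 8, with a median deviation of 0.26, and within the LA group mouse 1 was the highest in 5. The ND mice showed no such order, with median deviations of 0.01, -0.03 and 0.01 and each of them the highest in 2 to 4 members. Over the 12 mice, the deviations of 2 members from their group means correlated with a median Pearson r of 0.694 over the 28 pairs, from 0.363 (S100a9 with S100a11) to 0.901 (Anxa2 with Anxa5). S100a11 and S100a10, neighbours on the chromosome, reached 0.437, while S100a10 and Anxa2, partners in the complex, reached 0.853. The other binding pair, S100a11 and Anxa1, reached 0.552, below the median of the pairs. The genes of 1 mouse share its library and the state of its liver, so these are descriptions of 12 mice. Leaving out control mouse 2 moved the median difference of the members in HYA against control from -0.60 to -0.85, and leaving out HYA mouse 1 moved it to -0.83.

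**Figure D4:**
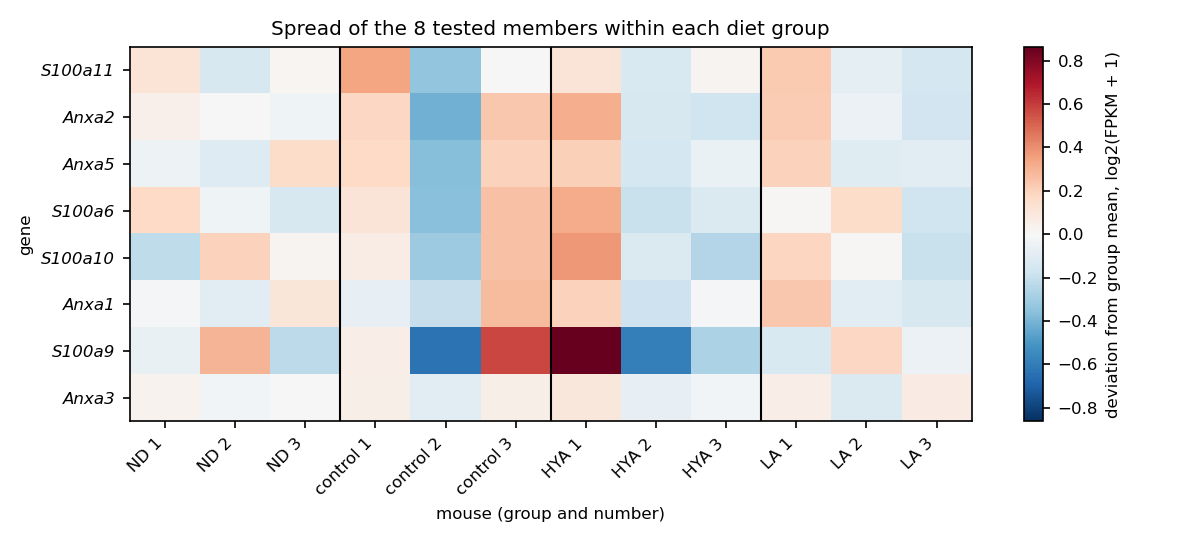
Deviation of each mouse from its group mean on the log2(FPKM + 1) scale for the 8 fitted members (rows) in the 12 mice (columns), red for above and blue for below the mean. Control mouse 2 is blue and HYA mouse 1 is red in all 8 rows, and S100a9 has the widest range.

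Among all 11083 genes tested, those whose deviations were most like those of a member were picked as its 3 highest Pearson r over the 12 mice. Anxa5 went with Col4a1 (r = 0.970), a basement membrane collagen chain, with Sparc (0.956), a matrix glycoprotein, and with Mug-ps1 (0.952). Anxa2 went with Nek6 (0.958), Tmem43 (0.951) and Mindy1 (0.947), and S100a11 with Abr (0.946), Uap1l1 (0.931) and Ckb (0.931), the brain-type creatine kinase. S100a10 went with Gm15417 (0.951) and Prss23 (0.941). Anxa1 went with Baiap2 (0.972), Slc41a2 (0.968) and Ski (0.966), and Anxa3 with Rnf220 (0.971), Vav1 (0.931) and Clec7a (0.930), the last 2 being genes of blood-derived cells. S100a6 went with Ccdc85c (0.939), Phf11b (0.938) and Tmem263 (0.930), and S100a9 with Chmp2b (0.924), Luzp1 (0.913) and Eipr1 (0.899). Each is the top of a ranking of 11083 genes, so high values occur by selection alone, and no p is given.

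Apart from the members, 19 S100 and annexin genes are in the table, of which 7 were fitted, 3 were at 0 in every mouse and 9 were detected below a mean of 1 FPKM. They are what the choice of members left, so their smaller differences are not independent of it. In control against ND, 16.2% of all genes were called higher. Of the 7, limma called 2 higher, Anxa7 (log2 fold change 0.45 ± 0.105, adjusted p = 0.00714) and Anxa4 (0.19 ± 0.0604, adjusted p = 0.0286), both annexins of secretion and membrane traffic. It called 1 lower, S100a1 (-0.19 ± 0.0599, adjusted p = 0.0318), beside 19.1% of all genes called lower, and the direction of S100a1 turned to 0.05 when FPKM was rescaled to TPM, which moved the median of all genes from -0.04 to 0.18. S100a1 lay below that median on both scales. Anxa6 (0.19) and Anxa11 (0.20) changed sign under TPM too. The 3 calls fell to 1 (Anxa7) without ND mouse 2, control mouse 1 or control mouse 3. S100a13 (-0.35 ± 0.130), S100a16 (0.12 ± 0.0630), Anxa6 (-0.05 ± 0.0789) and Anxa11 (-0.02 ± 0.0987) were not called. S100a1 was abundant, with a mean of 111.7 FPKM in ND and 97.9 FPKM in control livers, and Anxa6 had 46.4 and 44.7 FPKM. In HYA against control, LA against control and HYA against LA, limma called 0 of the 7, 0 had an unadjusted p under 0.05, and voom called 0 of 9 fitted there, of which 3 had an unadjusted p under 0.05 in HYA against control, 0 in LA against control and 3 in HYA against LA. Among the genes below 1 FPKM, S100g, which encodes calbindin-D9k, had 1 fragment over the 3 ND mice, 16 over control, 23 over HYA and 16 over LA mice. It was too low for the fit as reported, and limma called it higher in control against ND and in HYA against ND with TPM and without the filter.

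The stretch of chromosome 3 with the 14 S100 genes holds 107 other genes, of which 89 were at 0 in every mouse and 2 were fitted. Sprr1a, a cornified envelope gene between the S100 genes (92483952 to 92485895), rose from 0.141, 0.0781 and 0 FPKM in ND to 30.5, 10.2 and 24.9 FPKM in control mice (log2 fold change 4.29 ± 0.315, limma adjusted p = 6.06e-06). It was lower in HYA mice, at 3.39, 3.35 and 5.62 FPKM, against control (-2.06 ± 0.315, limma adjusted p = 0.0168) and against LA mice (-2.07 ± 0.315, limma adjusted p = 0.0350), which had 22.0, 17.6 and 21.1 FPKM. The HYA and control call of Sprr1a was lost without control mouse 1, without HYA mouse 2, and with only the 6 mice compared. The HYA and LA call was lost without any 1 of the ND, HYA or LA mice and without the filter on low genes. The other, Gm4202, was called higher in control against ND (0.50 ± 0.173, limma adjusted p = 0.0441), a call lost without ND mouse 3, control mouse 1 or 2, HYA mouse 2 or any 1 LA mouse.

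Of 16 receptors and binding partners of these proteins, 11 were fitted. In control against ND limma called 6 higher and 1 lower, beside 16.2% of all genes called higher and 19.1% called lower. Ahnak, a large scaffold bound by the S100a10 and annexin A2 complex, rose by 0.51 ± 0.0657 (adjusted p = 0.000209) and Myh9, the non-muscle myosin heavy chain bound by S100a4, by 0.41 ± 0.0848 (adjusted p = 0.00364). Cd14 (1.13 ± 0.217, limma adjusted p = 0.00246) and Ly96 (0.56 ± 0.105, limma adjusted p = 0.00205), which belong to the Tlr4 receptor that calprotectin can engage, rose too, as did Bsg (0.31 ± 0.0909, limma adjusted p = 0.0228), another calprotectin receptor, whose call was lost without ND mouse 1, ND mouse 2, control mouse 1 or control mouse 3. The complex of S100a10 and annexin A2 binds plasminogen and its activators. The activator Plau rose (0.65 ± 0.130, limma adjusted p = 0.00311) and plasminogen, Plg, fell from a mean of 636 to 344 FPKM (-0.88 ± 0.0870, limma adjusted p = 3.9e-05). Below the level for testing, the receptor Plaur had means of 0.178 FPKM in ND and 0.853 FPKM in control livers, and Plat 0.0527 and 0.496 FPKM. Ager, the receptor for several S100 proteins, had 0.159 and 0.0812 FPKM.

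In HYA against control, Myh9 (-0.40 ± 0.0848, limma adjusted p = 0.0408) and Ly96 (-0.45 ± 0.105, limma adjusted p = 0.0490) were lower, beside 1.23% of all genes called lower. Plg was higher (0.38 ± 0.0870, limma adjusted p = 0.0487), beside 1.57% of all genes called higher. All 3 lay close to the threshold. Leaving out any 1 of control mice 1 and 3, the HYA mice, ND mouse 1 and LA mouse 3 left 0 of them, and leaving out ND mouse 2 or 3 or LA mouse 1 or 2 left 1. In LA against control limma called 0 partners (0 at an unadjusted p under 0.05, voom 0), and in HYA against LA it called 0 (5 at an unadjusted p under 0.05), where voom called 2, Ahnak and Myh9, and leaving out control mouse 1 or 2 gave 1.

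Some lists of cell type markers moved along with the members and others did not, and their part in the members' differences was not tested. Over all genes, limma called 16.2% higher and 19.1% lower in control against ND, and 1.23% lower in HYA against control. The 12 stellate cell and fibroblast markers summed to 47.0 to 61.2 FPKM in ND, 108 to 139 in control, 84.2 to 99.0 in HYA and 116 to 142 in LA livers, with limma calling 9 of 12 higher in control against ND and 4 of 12 lower in HYA against control. The 10 monocyte and macrophage markers summed to 91.3 to 129, 150 to 193, 115 to 159 and 160 to 173 FPKM in the same order, with 5 of 6 fitted markers higher in control and 2 of 6 lower in HYA. The 8 bile duct markers summed to 19.4 to 28.3, 78.7 to 173, 39.2 to 53.1 and 81.9 to 135 FPKM, most of it Spp1 (mean 21.0 FPKM in ND and 118 in control livers), which injured liver also expresses outside ducts, while Krt19 had 0.746 and 0.897 FPKM. Of the 3 that were fitted, limma called 2, Spp1 and Epcam, higher in control against ND and lower in HYA against control. Sox9 was called in neither. All 7 hepatocyte markers in the table were called lower in control against ND on the FPKM scale (median -0.51), and their median was 0.21 in HYA against control. TPM moved the median of all genes in control against ND from -0.04 to 0.18, so small differences such as that of Apob (-0.18) can depend on the scale. Kupffer cell markers summed to 122 to 193 FPKM in ND and 146 to 173 FPKM in control livers, with limma calling 2 of 5 lower, Marco (mean 23.4 and 5.96 FPKM) and Timd4 (5.27 and 2.49 FPKM), and 1 higher, Cd5l (63.3 and 90.7 FPKM). Endothelial markers summed to 49.7 to 60.8 and 69.4 to 70.6 FPKM, with limma calling 2 of 6 fitted markers higher, Lyve1 and Pecam1. Red blood cell markers summed to 280.0 to 384 and 337 to 556 FPKM. Of the 5 fitted, limma called 0 higher and 1 lower, Alas2 (-1.10 ± 0.0995). Lymphocyte markers summed to 3.90 to 6.37 and 4.85 to 5.46 FPKM and mesothelial markers to 0.464 to 0.657 and 0.915 to 1.07 FPKM.

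Beside the calprotectin genes S100a8 and S100a9, the 12 neutrophil markers, which do not include them, summed to 1.31 to 2.31 FPKM in ND, 2.64 to 3.71 in control, 1.70 to 2.82 in HYA and 2.14 to 3.21 in LA livers. Only Csf3r reached a mean of 1 FPKM, Ly6g was at 0 in 11 of the 12 mice, and Camp and Ngp, granule genes of neutrophils, had means of 0.0394 and 0.0953 FPKM over the 12 mice.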

How the data were processed

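Liver RNA of 12 mice (4 groups of 3) was sequenced as paired ends. The authors deposited FPKM values in 1 table that also gives gene lengths and coordinates. Although their methods name TPM, column totals differed between mice, from 342146 to 429286, which TPM does not. The submitters' processing notes list fastp, HISAT2 2.0.5, featureCounts 1.5.0-p3 and GRCm38. Strand setting and annotation release are not given in the sources used here. Coordinates were identical to GENCODE M21 for 98.33% of shared identifiers. Values times gene length were whole multiples of 1 step in every mouse (100% within 0.1), which gave the fragments, and thus depths of 17169064 to 25220880 on genes. The library total implied by the step differed from this depth. It was 1.76e+07, 1.59e+07 and 1.80e+07 in the ND mice, below their 18443002, 17169064 and 19595277 fragments. In the control mice it was 2.15e+07, 2.14e+07 and 2.07e+07, above their 19558364, 20669092 and 19625837. It was above in the LA mice too, and on either side in the HYA mice. Limits set by 3 fragments cover counting error only.

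log2(FPKM + 1) of the 11083 genes averaging 1 FPKM or more was fitted with limma 3.58.1 in R 4.3.3 (1 coefficient per group, 12 mice, trend, two-sided, Benjamini-Hochberg over all tested genes). Scripts were tested on simulated data. Tables were made with pandas 2.3.3. Members and lists were chosen with earlier results of these data known. Named genes were all members, other family genes at 1 FPKM or above, called partners, the 3 genes most like each member, markers, and chromosome 3 neighbours called with a log2 change above 1 in size. Gm4202, S100g, Plaur, Plat and Ager were named outside this rule, after their values were seen. 1 gene that the rule names is not reported here. Each mouse is a separate animal. Alternatives were another pseudocount (0.1), no filter, a filter of 10 mean fragments, TPM, median-ratio size factors, voom on fragments, only the 6 mice compared, a replicate block, a fold limit, and leaving out each mouse. Over all genes, voom called 5185 in control against ND, 737 in HYA against control, 0 in LA against control and 308 in HYA against LA, where limma on log2(FPKM + 1) called 3910, 310, 0 and 54.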

Additional observations from a re-analysis of the deposited data

How the results depend on the processing

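No called fold change of a member changed sign under any alternative. Over the 5 comparisons, 760 refitted values of single members stayed within the spread between mice of the reported value, and 40 moved further. Those 40 arose under TPM (14, with 26 within the spread), a pseudocount of 0.1 (9, with 31 within) and voom (17, with 23 within). Median-ratio size factors kept all 40 of their values within it. Most of the 760 are no check of robustness. Changes of the filter, fits of only the mice compared and the replicate block leave the difference of group means unchanged. Leaving out a single mouse shifts the mean of its group by less than the SD of that group. Median member fold change in control against ND was 1.31 with TPM, 1.62 with a pseudocount of 0.1 and 1.86 with voom. In HYA against ND it was 0.81, 0.85 and 1.13, and in HYA against control -0.84 with voom. TPM moved the median of all genes from -0.04 to 0.18 in control against ND and from 0.02 to -0.10 in HYA against control.

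The number of genes fitted changes with the filter, TPM and voom, so each count is given out of the number fitted. The count of all genes called changes between settings too, as given above for voom. Members called in HYA against control were 1 of 10 without the filter, 0 of 8 with only the 6 mice and 1 of 8 with the fold limit. In HYA against LA they were 0 of 10 without the filter. In HYA against ND they were 7 of 9 with TPM, which moved the median of all genes there from -0.02 to 0.09. Other S100 and annexin genes called in control against ND were 5 of 10 with TPM, 1 of 7 with only the 6 mice and 0 of 7 with the fold limit. Partners called were 11 of 15 with voom and 1 of 11 with the fold limit in control against ND. In HYA against control they were 1 of 11 with a pseudocount of 0.1, 0 of 16 without the filter, and 0 of 11 with only the 6 mice and with the fold limit. In HYA against LA they were 1 of 14 with TPM and 2 of 15 with voom. Chromosome 3 neighbours called in control against ND were 1 of 18 without the filter, and 1 of 2 with only the 6 mice and with the fold limit. In HYA against control they were 0 of 2 with only the 6 mice. The cause of these changes was not tested.

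Leaving out 1 mouse gave 0 to 4 members called in HYA against control, 0 to 3 in HYA against LA and 3 to 7 in HYA against ND (7 without control mouse 2). It gave 1 to 3 other family genes and 1 to 2 neighbours in control against ND, 0 to 3 partners and 0 to 1 neighbours in HYA against control, and 0 to 1 partners in HYA against LA. These fits held 8 members, 7 other family genes, 11 partners and 2 neighbours. The medians ran from -0.85 to -0.42 in HYA against control and from -0.77 to -0.45 in HYA against LA.

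Replicate numbers did not pair the mice: 3 of 18 pairs of same-numbered mice had deviations correlated above 0.1 (r from -0.396 to 0.294). With the number as a replicate block, partners called were 1 in HYA against control and 2 in HYA against LA.

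Below a mean of 1 FPKM, S100a4 and S100a8 are limited by their few fragments. Groups of 3 mice are too small to judge single mice as outliers.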
